A study of Homo sapiens with 18 samples.

Results

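The cytosolic ribosomal protein genes encode the proteins of the ribosome that translates nuclear messages. They were taken from the deposited expression table by symbol, as every RPL or RPS symbol followed by a number with an optional A or X, together with RPLP0, RPLP1, RPLP2 and RPSA, provided that at least 3 of the 18 libraries held at least 1 scaled TPM. This gave 77 genes of the 35616 in the table, 46 for the large (60S) and 31 for the small (40S) subunit, and all 77 passed the filter. Pseudogene rows and paralogues such as RPL22L1 were not members. RNA came from HUDEP-2, an immortalised line of red cell precursors grown from cord blood, which matures in culture on induction. There were 6 groups of 3 libraries: HBBko cells, labelled as a knockout of the β-globin gene HBB, and WT cells, each collected undifferentiated and at 48 h and 5 d of induced maturation. The labels give neither the number of HBBko clones nor how HBB was edited, and do not say whether the triplicates were started separately, so p-values measure the spread between these libraries, which may be technical.

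A ribosome holds a single copy of nearly every ribosomal protein, so cells keep the messages of these genes at high and roughly matched levels. Many of these messages begin with a cytosine followed by a run of pyrimidines, the terminal oligopyrimidine (TOP) tract, through which mTOR signalling and LARP1 control their translation and stability together. Erythroid precursors build very large numbers of ribosomes early and stop making them before the nucleus is lost, and inherited loss of 1 copy of certain ribosomal protein genes causes Diamond-Blackfan anaemia, a failure of red cell production.

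RefSeq start-site windows (GRCh38.p14) were found for 62 of the 77 genes, and the start sequence is the feature these genes most visibly share. In 42 of the 62 (67.7%) the annotated first base was a C followed by at least 4 more C or T, against 5.69% of the 8916 tested genes with a window and 4.04% of all 27305 windows. A run of at least 8 C or T touched the 10 bases on either side of the start in 82.3% of the members and 14.5% of the tested genes. The 8 windows here run from 5 bases before the annotated start to the 20th base of the transcript, with the longest run of C and T near the start in capitals. RPLP2, RPS12, RPL41, RPLP1, RPL22 and RPL26 show the typical start, a C with at least 4 more C or T after it. RPS26 and RPL10A have the run 2 bases after the annotated start.
RPLP2: gCCTTCCTTTTCCTCCCTgtcgcca
RPS12: gaggCCTCTTTCCCTgccgccgccg
RPL41: CCTTTCTCTCggccttagcgccatt
RPLP1: gagagCCCCTTTCCTCagctgccgc
RPL22: aCCTCCCTTTCTaactccgctgccg
RPL26: tagTTCTCTTCCCTTTTgcggccat
RPS26: acctcgaTTTTCTTCCgccatccgg
RPL10A: atgctagTCTCTTTTCCggttagcg
These windows are at chr11:809962-809986 on the plus strand, chr6:132814564-132814588 on the plus strand, chr12:56116628-56116652 on the plus strand and chr15:69452813-69452837 on the plus strand. The other four are at chr1:6199576-6199600 on the minus strand, chr17:8383174-8383198 on the minus strand, chr12:56041913-56041937 on the plus strand and chr6:35468396-35468420 on the plus strand. Upstream motifs, searched on both strands over the 250 bases before and 50 after the start, set the members apart less. CCGGAAG, a core bound by ETS factors such as GABPA, was in 33.9% of members and 21.3% of tested genes, GGGCGG, the GC box, in 54.8% and 71.3%, and TATAAA in 8.06% and 5.11%.

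Ribosomal protein messages were among the most abundant in these cells. Levels are in scaled TPM, the authors' TPM after a further scaling between libraries, which is a level per transcript length. Of the 77 genes, 64 averaged at least 1000 scaled TPM over the 18 libraries, the median gene averaged 1825, and 54 were among the 100 genes with the highest average. The highest averages belonged to RPS12 (5597 scaled TPM), a protein of the head of the 40S subunit, RPS18 (5072), RPL30 (4958), RPL41 (4472), the shortest member with 25 residues, and RPL13A (4308). RPL22, a 60S protein that also binds RNA outside the ribosome, averaged 529 and RPS26, which lies where mRNA leaves the 40S subunit, averaged 269. Below these came RPL9 (56.4), RPL26 (28.8), RPS7 (27.6), RPS10 (23.9) and RPS27 (18.1). The genes lie on 21 chromosomes, and RPL10, RPL36A, RPL39 and RPS4X lie on the X chromosome.

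**Figure D1:**
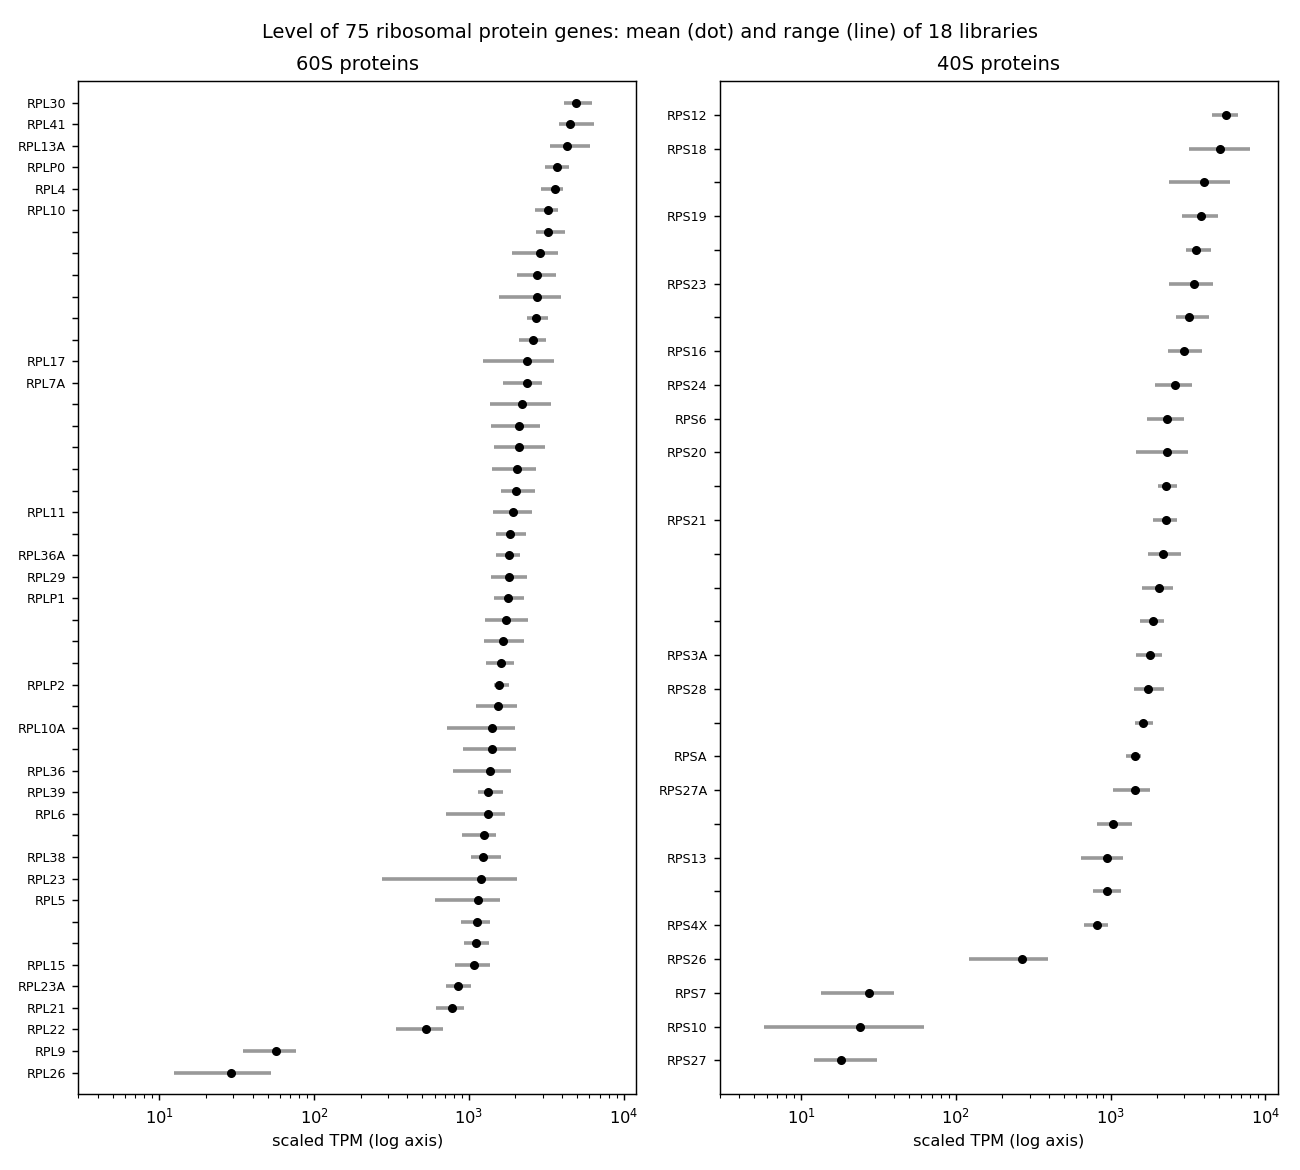
Mean level (dot) and range over the 18 libraries (line) of 75 of the ribosomal protein genes, in scaled TPM on a log axis, 60S proteins at left and 40S proteins at right, with the genes named in the text labelled. Most genes sit between 1000 and 5597, while RPL9, RPL26, RPS7, RPS10 and RPS27 sit under 100, and RPL23 has the longest line among the abundant genes.

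The low rows of RPL26, RPS7, RPS10 and RPS27 are not matched by the authors' other tables. In the authors' deposited table for 5 d, which gives a mean log2 level per gene, RPS27 stood at 15.96 (rank 22 of the 77), RPS10 at 15.32, RPL26 at 14.84 and RPS7 at 14.74, in the midst of the other members, while RPL9 was lowest there too at 9.94. At every stage these 4 genes exceeded the members' typical gap between the tables by 5.32 to 7.55 on the log2 scale, against -1.16 to 1.66 for the other 73. Their values in the scaled TPM table therefore do not hold the signal that the authors tested, and the counts of calls are also given for the 73 other genes. The 4 rows hold at most 0.105% of the members' summed level. Member sums therefore lack most of the signal that the authors' tables give these genes. RPS7, RPS10 and RPS27 belong to the small subunit and RPL26 to the large one. The members' shares and the ratios of small to large subunit sums given below are thus likely too low. By how much was not computed. Rows of pseudogenes and read-through genes can also take signal: rows with a member's symbol plus a suffix summed to over 10% of the joint level for 5 genes (RPL23A 56.2%, RPL21 45.7%, RPS28 45.5%, RPS10 29% and RPS7 17.7%), whose levels are uncertain for that reason, and to under 1% for 65. For RPS10 most of that sum was the read-through gene RPS10-NUDT3, and for the other four the largest row was a pseudogene.

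HBB was lower in each HBBko library (4598 to 4983 scaled TPM undifferentiated, 22102 to 24265 at 48 h, 69004 to 72650 at 5 d) than in any WT library of its stage (12454 to 22376, 99196 to 132741 and 427628 to 458719). WT undifferentiated replicate 3 had the most HBB and the highest ribosomal protein share of its group. Counts of ribosomal protein genes called that turn with it are given without it. The 9 summed erythroid markers averaged 340747 scaled TPM in HBBko cells and 317949 in WT cells at 5 d, and markers of myeloid, lymphoid and stromal cells were each under 1 in every library. The 6 mast cell, basophil and eosinophil markers, 2 of them under 1 in every library, summed to 123.3 to 129.98 in HBBko cells and 56.6 to 60.2 in WT cells before differentiation. Their sums were 9.19 to 11.7 in HBBko cells and 7.32 to 9.92 in WT cells at 48 h, and 25.2 to 36.1 in HBBko cells and 18.8 to 20.8 in WT cells at 5 d. The 5 megakaryocyte markers, 4 of them under 1 in every library, summed to 1.65 to 2.02 in HBBko cells and 4.14 to 4.54 in WT cells before differentiation and to under 1 later. The part of these lists in the ribosomal protein differences was not tested. Globin messages took 38.6% to 39.9% of the level in HBBko libraries and 50.5% to 52.1% in WT libraries at 5 d (the plot of shares gives the ribosomal protein share with and without globins). Read depth is unknown from these values, so precision rests on the spread between replicates.

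As a share of all messages, ribosomal protein messages were lower at later stages in both lines, and at 5 d lower in WT than in HBBko cells. They made up 20.7% to 21.4% of the level in undifferentiated HBBko libraries and 20.7% to 23.6% in WT libraries, where replicate 3 was the highest. At 48 h the share was 19.1% to 19.3% in HBBko cells and 17.2% to 18.1% in WT cells, and at 5 d it was 11.6% to 12.5% in HBBko cells and 8.41% to 9.21% in WT cells. The groups did not overlap at 48 h or 5 d. With the globin genes left out of the total, the share varied less. At 5 d the share was 19.3% to 20.5% in HBBko libraries and 17.3% to 18.6% in WT libraries, still without overlap, whereas at 48 h it was 22.0% to 22.3% in HBBko cells and 22.5% to 22.8% in WT cells, with the order turned. The summed 40S level over the summed 60S level was 0.712 to 0.716 in undifferentiated HBBko cells and 0.717 to 0.725 in WT cells, 0.722 to 0.732 in HBBko and 0.732 to 0.739 in WT cells at 48 h, and 0.755 to 0.762 in HBBko and 0.758 to 0.760 in WT cells at 5 d. In both lines every 5 d library had a higher ratio than every 48 h library. The low rows of RPL26, RPS7, RPS10 and RPS27 entered these shares and ratios as they stand. With 3 libraries a group the smallest two-sided exact permutation p is 0.1, and no test was run on these shares. In bulk RNA, fewer cells of a kind and less of a message per cell cannot be told apart.

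**Figure D2:**
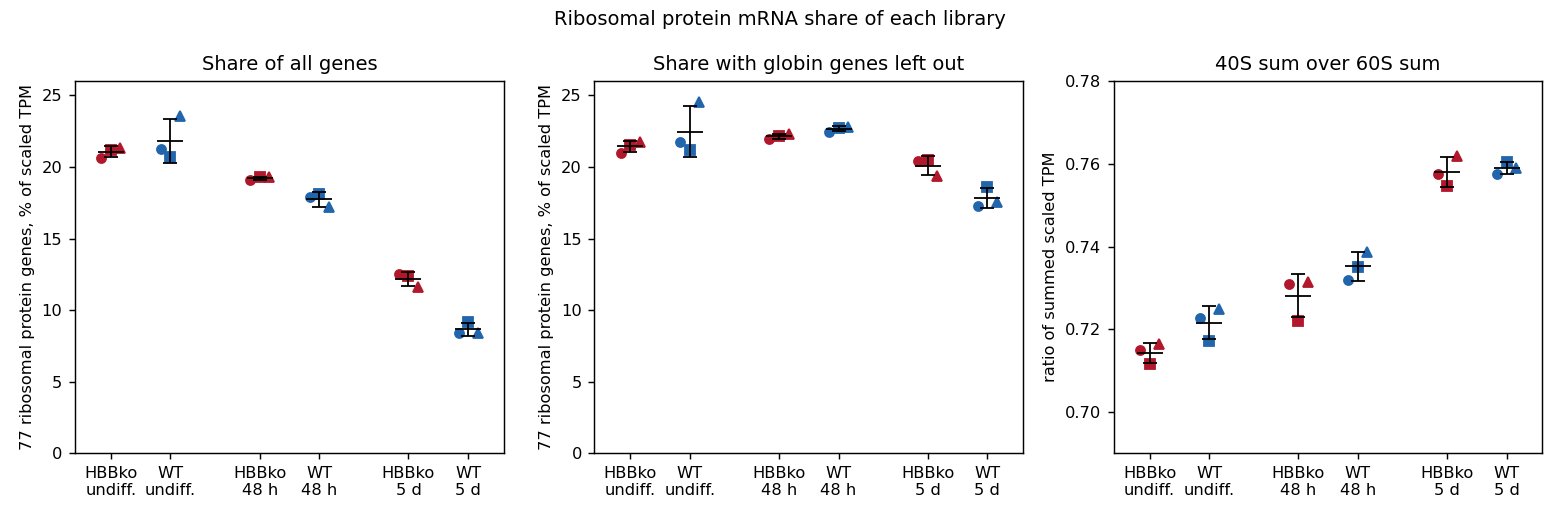
Share of the 77 ribosomal protein genes in the summed scaled TPM of each library (left), the same with globin genes left out of the total (middle), and the ratio of 40S to 60S sums (right, axis not from 0), by group with HBBko in red and WT in blue. Symbols are the 3 replicates and bars the mean ± SD; the 5 d libraries hold the lowest shares, with HBBko at 11.6% to 12.5% above WT at 8.41% to 9.21%.

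Before differentiation, few ribosomal protein genes differed between HBBko and WT cells. Each gene was compared on log2(scaled TPM + 1) with limma over all 12005 tested genes, a gene being called at a Benjamini-Hochberg adjusted p under 0.05, and fold changes are on that scale with the standard error of the fit. In HBBko cells 4 of the 77 were called higher and 3 lower, against 20.9% and 22.3% of all tested genes called higher and lower, and the median was -0.08 against -0.01 over all tested genes. RPS26 had 314, 346 and 323 scaled TPM in HBBko libraries and 254, 274 and 286 in WT libraries. The groups did not overlap, and RPS26 was called higher (0.27 ± 0.06, limma adjusted p = 0.0028). RPL9, a 60S protein near the base of the stalk, had 75.7, 76.2 and 72.5 in HBBko libraries and 58.2, 57.5 and 61.5 in WT libraries, again without overlap (0.34 ± 0.05, limma adjusted p = 0.000109). RPS12 was called lower, with 4548, 4800.3 and 4838 scaled TPM in HBBko libraries and 5272, 5419 and 6639 in WT libraries, every HBBko library below every WT library (-0.28 ± 0.07, limma adjusted p = 0.00538). RPL36A (-0.22) and the 40S protein gene RPS3A (-0.17) were the other lower calls. In the authors' deposited table none of these lower calls had a q under 0.05: RPS12 (-0.29 ± 0.12, q = 0.0566), RPL36A (-0.22 ± 0.13, q = 0.22) and RPS3A (-0.18 ± 0.10, q = 0.188). There RPS26 (q = 0.0168) and RPL9 (q = 0.00319) did. The remaining higher calls, RPS10 (0.83) and RPL26 (0.39), come from rows that the authors' deposited table does not match, where the log2 fold changes were 0.07 ± 0.11 (q = 0.695) and -0.07 ± 0.10 (q = 0.66); the 73 other genes held 2 higher and 3 lower calls. The number of lower calls turned on single libraries: without WT undifferentiated replicate 3 there was 1 lower call and the median was 0.02, without WT replicate 1 or 2 there were 15 and 17, and without HBBko replicate 1 there was 1.

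At 48 h the fit of all libraries called fewer ribosomal protein genes between the lines than before differentiation, and also fewer of all tested genes. In this comparison 1 gene was called higher (RPL26, 0.16, limma adjusted p = 0.0448) and 1 lower (RPS27, -0.26, limma adjusted p = 0.0452), against 9.52% and 9.21% of all tested genes, and both are among the 4 unmatched rows, so the 73 other genes held no call. By limma, 2 of the 73 were higher and 1 lower at an unadjusted p under 0.05, and the authors' deposited table had 4 higher and 14 lower of the 77 at q under 0.05. For neither of these counts was the share of all genes computed. Of the 77, 19 genes were higher and 25 lower in HBBko cells without overlap (17 and 24 of the 73), against 29.5% and 22.4% of all tested genes. Before differentiation 4 of the 77 were higher and 2 lower without overlap. The share of all tested genes was not computed there, so the stages cannot be compared by overlap. RPL36, a 60S protein, had 1404, 1476 and 1427 scaled TPM in HBBko libraries and 1754, 1736 and 1736 in WT libraries. All 3 HBBko values lay below all 3 WT values, and the difference missed the threshold (-0.28 ± 0.10, limma adjusted p = 0.053). When the 6 libraries of this stage were fitted alone, 6 genes were called higher and 11 lower, and leaving out any 1 of them in the fit of all libraries gave 0 to 1 higher and 0 lower calls.

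At 5 d ribosomal protein messages were broadly higher in HBBko cells. Of the 77 genes, 37 were called higher and 3 lower, against 26.5% and 24.8% of all tested genes, 68 had a positive fold change, and the median was 0.16 against 0.02 over all tested genes. Among the 73 genes with matched rows the calls were 36 higher and 1 lower. Of the 46 60S genes 25 were called higher and 1 lower (median 0.19), and of the 31 40S genes 12 were called higher and 2 lower (median 0.14). With matched rows alone these were 24 and 1 of 45 60S genes and 12 and 0 of 28 40S genes. The groups did not overlap for 49 genes with HBBko higher and for 4 with HBBko lower (48 and 2 of the 73), against 31.1% and 28.7% of all tested genes.

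RPL23, a 60S protein at the face between the subunits that is also known to bind the p53 regulator MDM2, had the largest increase. It had 489, 470.1 and 504 scaled TPM in HBBko libraries and 273, 277 and 294 in WT libraries at 5 d. Every HBBko library was far above every WT library (0.79 ± 0.06, limma adjusted p = 1.2e-08). RPL6, a 60S protein, had 1065, 1074 and 1057 in HBBko libraries and 715, 765 and 727 in WT libraries, with no overlap (0.53 ± 0.05, limma adjusted p = 1.89e-07). RPL22 had 489.8, 490.1 and 471 in HBBko libraries and 339.5, 364 and 337 in WT libraries, also apart (0.48 ± 0.07, limma adjusted p = 3.51e-05). RPL5, which with RPL11 and the 5S rRNA forms the particle that sequesters MDM2 when assembly fails, had 840.3, 823 and 824 in HBBko libraries and 618, 637 and 607 in WT libraries. The groups were apart and RPL5 was called higher (0.42 ± 0.05, limma adjusted p = 3.61e-06). Its partner RPL11 was also higher without overlap but was not called (0.14 ± 0.07, limma adjusted p = 0.11). For RPL11 the authors' deposited table gave 0.13 ± 0.05 (q = 0.016). Of the proteins lining the exit tunnel of the nascent chain, RPL17 (0.48 ± 0.07) and RPL4 (0.27 ± 0.06) were called higher. RPL39 was also higher without overlap but was not called (0.14 ± 0.06), and the authors' deposited table gave it 0.12 ± 0.04 (q = 0.013). RPL10A, a protein of the L1 stalk beside the exit site for tRNA, was called higher (0.41 ± 0.07).

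The acidic stalk, which recruits the translation factors that hydrolyse GTP, did not take part in the calls. RPLP2 had 1599, 1541 and 1489 scaled TPM in HBBko libraries and 1569, 1681 and 1687 in WT libraries. These ranges overlapped, and none of RPLP0 (0.13 ± 0.07), RPLP1 (-0.07 ± 0.09) and RPLP2 (-0.09 ± 0.06) was called; with every library set to the same sum, RPLP1 and RPLP2 turned positive (0.27 and 0.24). RPL36 was the only lower call among matched rows, with 954, 945 and 789 in HBBko libraries and 1156, 1358 and 1244 in WT libraries. All 3 HBBko values lay below the WT values, as at 48 h (-0.49 ± 0.10, limma adjusted p = 0.000472).

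On the 40S side, RPS20, a target of ubiquitination on collided ribosomes, had 2051, 2013 and 1963 scaled TPM in HBBko libraries and 1468, 1503 and 1533 in WT libraries. It was called higher without overlap (0.42 ± 0.06, limma adjusted p = 2.18e-05). RPS26 had 149, 167 and 173 in HBBko libraries and 122, 128 and 121 in WT libraries, apart as well (0.40 ± 0.06, limma adjusted p = 7.28e-05). RPS12, called lower in HBBko cells before differentiation by limma, had 6011, 6016 and 5781 in HBBko libraries and 5618, 6042 and 5794 in WT libraries. These overlapped (0.03 ± 0.07, limma adjusted p = 0.77). RPS19, the gene most often mutated in Diamond-Blackfan anaemia, had 3589, 3695 and 3315 in HBBko libraries and 2897, 3307 and 3157 in WT libraries. The HBBko values were all higher, and the difference missed the threshold (0.18 ± 0.09, limma adjusted p = 0.104). Of the 21 members known as Diamond-Blackfan anaemia genes, 9 were called higher and 2 lower at 5 d, 4 higher and 0 lower before differentiation, and 1 higher and 1 lower at 48 h. The 4 higher calls before differentiation are 19% of the 21, near the 20.9% of all tested genes, and the 9 at 5 d are 42.9%, against 26.5%. The unmatched rows gave RPS10 and RPL26 of the higher calls before differentiation, both calls at 48 h, and RPL26 and both lower calls at 5 d. The 17 others held 8 higher and 0 lower calls at 5 d, 2 and 0 before differentiation, and none at 48 h. Of the 4 X-linked members, RPL36A was called higher (0.22 ± 0.07) and RPL10, RPL39 and RPS4X were not called.

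The 2 largest decreases belong to rows that the tables do not share. RPS7 had 20.6, 16.6 and 13.5 scaled TPM in HBBko libraries and 36.3, 36.9 and 30.4 in WT libraries at 5 d, and RPS27 had 20.8, 17.5 and 18.1 in HBBko libraries and 31.0, 30.4 and 31.0 in WT libraries. Both were apart and called lower (-1.01 ± 0.11 and -0.68 ± 0.09, limma adjusted p = 1.17e-06 and 4.77e-06). In the authors' deposited table the same contrast was 0.01 ± 0.04 for RPS7 (q = 0.855) and -0.05 ± 0.04 for RPS27 (q = 0.362), so these calls hold only for the scaled TPM rows. For RPL23 and RPL22 the authors' deposited table gave 0.78 ± 0.05 and 0.47 ± 0.04. The direction of the authors' contrasts was read from their signs against the scaled TPM values of the same libraries, so a shared sign is no separate support. Over all 77 genes the authors' deposited tables had 2 higher and no lower at q under 0.05 before differentiation (76 of the 77 with a q value), 4 higher and 14 lower at 48 h, and 46 higher and 1 lower at 5 d, with medians of -0.09, -0.03 and 0.17. The share of all genes at that q in those tables was not computed, so these counts have no background beside them.

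**Figure D3:**
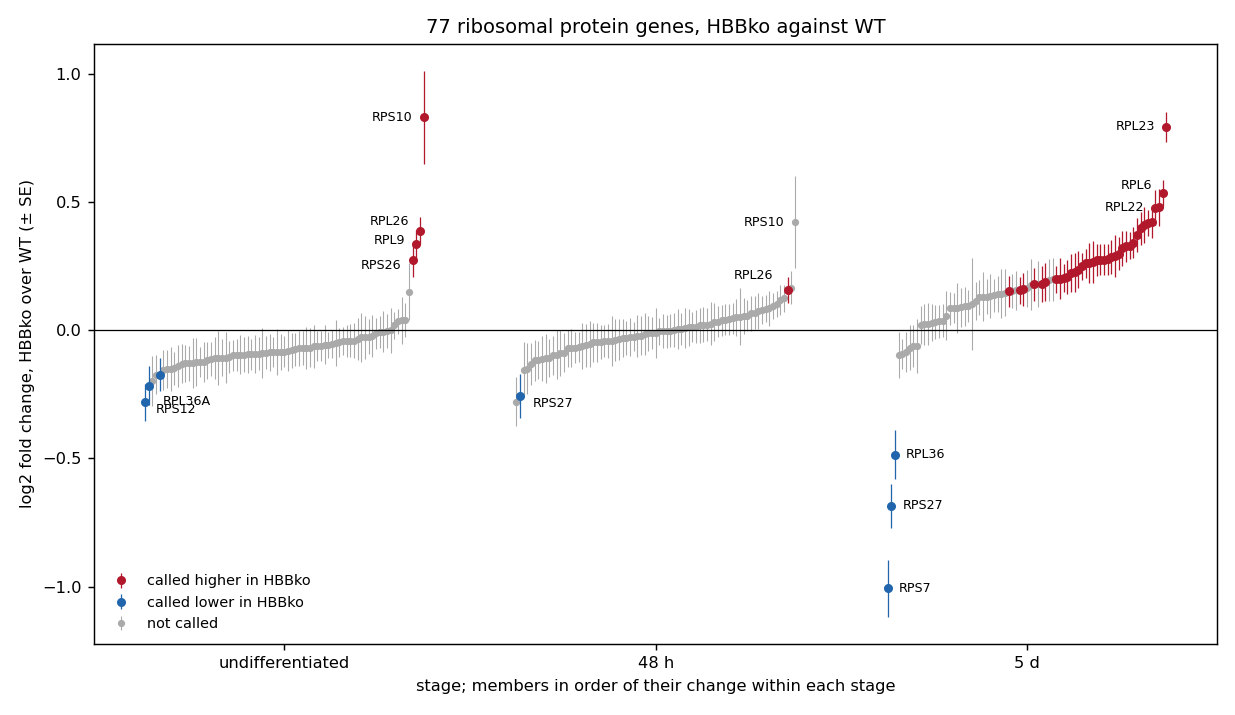
Log2 fold change of HBBko over WT with the standard error of the limma fit for each of the 77 genes at each stage, in order of the change within a stage, with called genes in colour. Most points sit just under 0 before differentiation and above 0 at 5 d, where RPL23 is highest at 0.79 and RPS7 lowest at -1.01; RPS10, RPL26, RPS27 and RPS7 are the rows not matched by the authors' deposited tables.

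**Figure D4:**
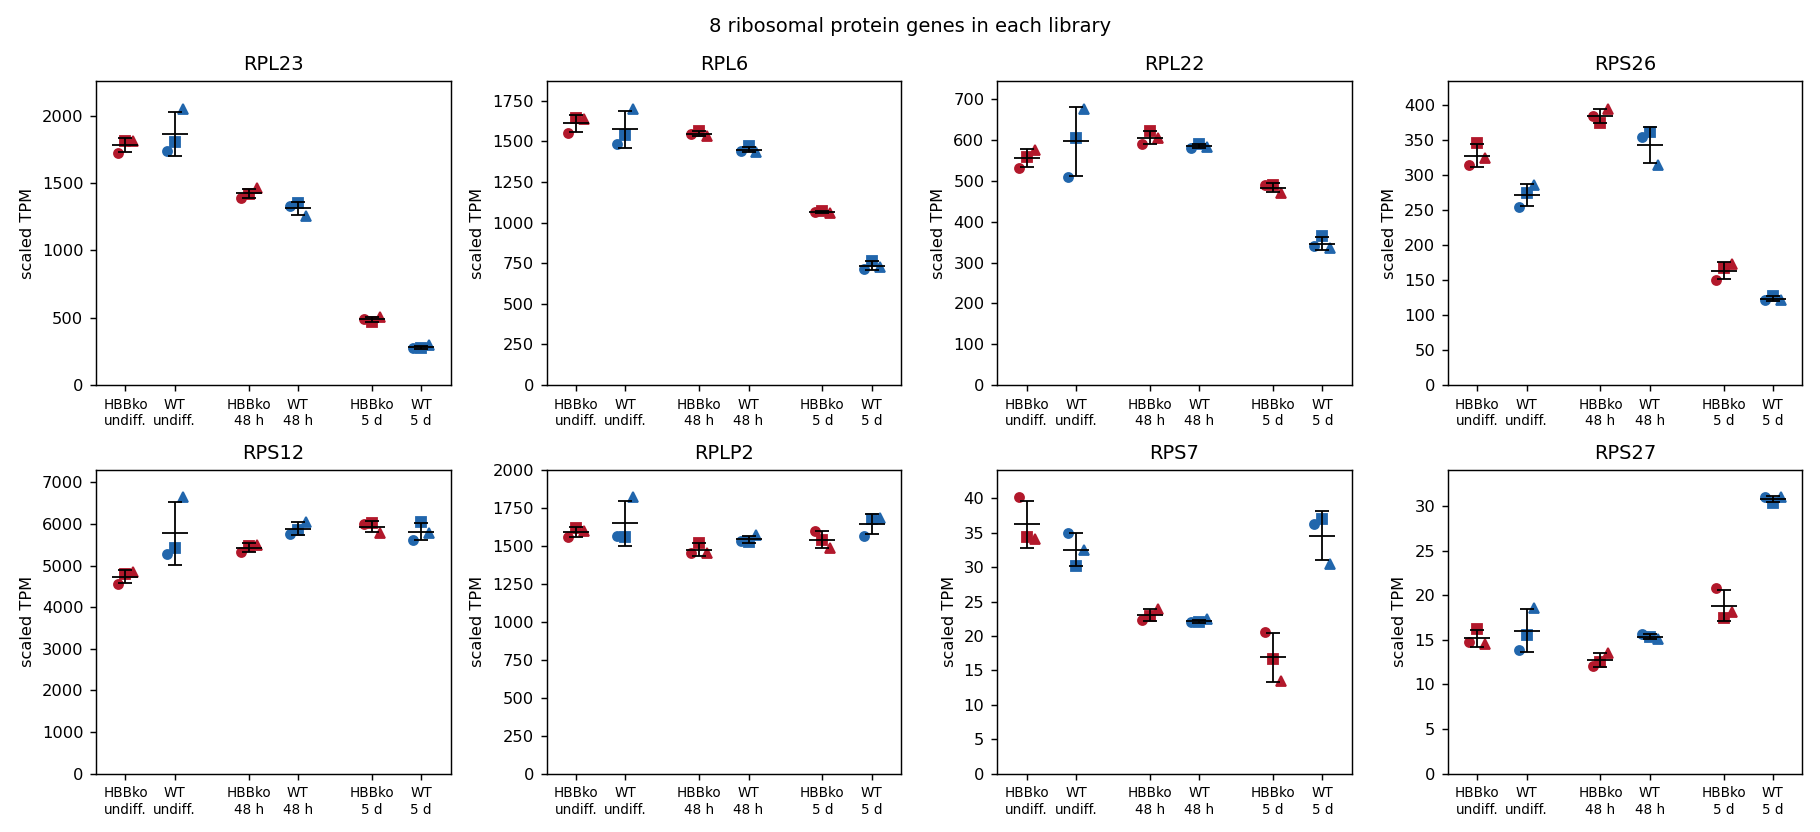
Scaled TPM of 8 ribosomal protein genes in each library, by group with HBBko in red and WT in blue; symbols are replicates 1 to 3 and bars the mean ± SD. RPL23, RPL6, RPL22 and RPS26 are lower at 5 d than at 48 h in both lines with HBBko above WT, RPS12 and RPLP2 overlap at 5 d, and RPS7 and RPS27, at levels under 41, have WT above HBBko at 5 d.

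Because a shift of all members together depends on how libraries are scaled, each gene was also compared after subtracting the members' mean log2 level in the same library. On that scale values on both sides of 0 are built in. HBBko cells had 24 higher and 16 lower calls at 5 d, 51.9% of the members against 45% of all tested genes called in either direction. They had 4 and 7 before differentiation (14.3% against 33.7%) and 0 and 3 at 48 h (3.9% against 10.6%). Among matched rows the calls were 24 and 14 at 5 d, 2 and 7 before differentiation, and 0 and 3 at 48 h. At 5 d RPL23 (0.64), RPL6 (0.38), RPL22 (0.33), RPL17 (0.32) and RPS20 (0.27) were called above the other members, and RPL36 (-0.64), RPS21 (-0.25), RPLP2 (-0.25) and RPL38 (-0.24) below them, besides RPS7 and RPS27.

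The difference between the lines changed between 48 h and 5 d. By the interaction term, 19 genes gained in HBBko relative to WT cells and 2 lost, against 11.5% and 13.1% of all tested genes, with a median of 0.20 against 0.00 over all tested genes. RPL23 (0.68 ± 0.08, limma adjusted p = 2.08e-05), RPL6 (0.44 ± 0.07), RPL22 (0.43 ± 0.10), RPL17 (0.41 ± 0.10) and RPS20 (0.38 ± 0.09) gained most. The 2 that lost were RPS7 and RPS27, so among matched rows every call was a gain. Leaving out 1 library of these 4 groups at a time gave 9 to 19 gains, and 8 of the 12 libraries took the count to 12 or fewer when left out: each HBBko library at 48 h, HBBko replicate 2 at 5 d, WT replicates 2 and 3 at 48 h, and WT replicates 1 and 3 at 5 d. Between undifferentiated cells and 48 h, RPL26 was the only call (-0.23 ± 0.07, limma adjusted p = 0.0468; 7.67% of all tested genes were called higher and 5.51% lower), and without WT undifferentiated replicate 1 there were 7 higher calls. The RPL26 call was lost without HBBko undifferentiated replicate 1 or 2 and without any 1 of the 6 libraries at 48 h.

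In the first 48 h of differentiation ribosomal protein messages changed little as a set. In HBBko cells 7 genes were called higher and 15 lower at 48 h than before differentiation (25.1% and 40.1% of all tested genes), and in WT cells 3 and 27 (23.5% and 41.4%). Among matched rows these counts were 7 and 11 in HBBko cells, and 3 and 24 in WT cells. RPS26 was called higher in HBBko cells (0.23 ± 0.06) and in WT cells (0.34 ± 0.06), as were RPL10, a late-joining 60S protein (0.36 ± 0.10 and 0.27 ± 0.10), and RPL21 (0.32 ± 0.06 and 0.16 ± 0.06). RPL41 had 3801, 4007 and 3950.5 scaled TPM at 48 h and 4810.1, 5106 and 5047 before differentiation in HBBko cells, and 4024, 4062 and 4253 at 48 h and 5239, 5065 and 6424 before differentiation in WT cells. It was lower without overlap in both lines (-0.35 ± 0.07 in HBBko and -0.43 ± 0.07 in WT), as was RPL23 (-0.32 ± 0.06 and -0.50 ± 0.06). The WT counts turned on WT undifferentiated replicate 3: without it 20 genes were called higher and 21 lower and the median was 0.01 in place of -0.09, while without WT undifferentiated replicate 1 or 2, or WT 48 h replicate 3, there was 1 higher call. In HBBko cells there were 3 higher calls without undifferentiated replicate 1, 4 without 48 h replicate 2 and 10 lower calls without 48 h replicate 1. With equal library sums RPL21 in WT cells changed sign (-0.04).

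Between 48 h and 5 d many ribosomal protein messages fell with the authors' scaling, and more of them in WT cells. In HBBko cells 2 genes were called higher and 45 lower (30.2% and 49.5% of all tested genes), with a median of -0.20, the same as over all tested genes. In WT cells 2 were called higher and 64 lower (30.8% and 49.5%), with a median of -0.40 against -0.20 over all tested genes. Among matched rows these counts were 1 and 42 in HBBko cells, and 0 and 62 in WT cells. The median change of the 60S genes was -0.26 in HBBko cells and -0.45 in WT cells, and that of the 40S genes was -0.17 in HBBko cells and -0.32 in WT cells.

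RPL23 fell most. At 48 h, ahead of the 5 d values given above, it had 1389, 1420.0 and 1461 scaled TPM at 48 h in HBBko libraries and 1329, 1352 and 1258 in WT libraries, and its 5 d over 48 h change was -1.54 ± 0.06 in HBBko cells and -2.22 ± 0.06 in WT cells (limma adjusted p = 1.76e-13 and 3.61e-15). RPS26 had 385, 373 and 395 at 48 h in HBBko libraries and 354, 361 and 314 in WT libraries, and every 5 d library lay below these (-1.23 ± 0.06 in HBBko and -1.47 ± 0.06 in WT). Other large falls, not all listed here, were those of RPL10A (-0.69 ± 0.07 in HBBko and -1.05 ± 0.07 in WT), RPL17 (-0.64 ± 0.07 and -1.05 ± 0.07), RPL6 (-0.54 ± 0.05 and -0.98 ± 0.05), RPL5 (-0.65 ± 0.05 and -0.96 ± 0.05) and RPL9 (-0.70 ± 0.05 and -0.77 ± 0.05), each called in both lines. At the other end RPS12 (0.13 ± 0.07 and -0.02 ± 0.07), RPL41 (0.08 ± 0.07 and -0.01 ± 0.07) and RPLP2 (0.06 ± 0.06 and 0.09 ± 0.06) were not called in either line, and their signs turn with the scaling. RPL36A was called higher in HBBko cells, with 2097, 2133 and 2087 scaled TPM at 5 d and 1712, 1775 and 1785 at 48 h (0.26 ± 0.07, limma adjusted p = 0.00415), and was not called in WT cells (-0.05 ± 0.07); the interaction for this gene was called (0.31 ± 0.11). With equal library sums the HBBko change of RPL36A turned to -0.19. Unmatched rows gave the increases of RPS27 (both lines) and RPS7 (WT), and the falls of RPS10 (-1.15 in HBBko and -0.83 in WT) and RPL26 (-1.07 in each line). Across the 72 members averaging at least 100 scaled TPM, the changes in the 2 lines ranked alike (Spearman's rho 0.898, a description across genes measured in the same libraries).

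**Figure D5:**
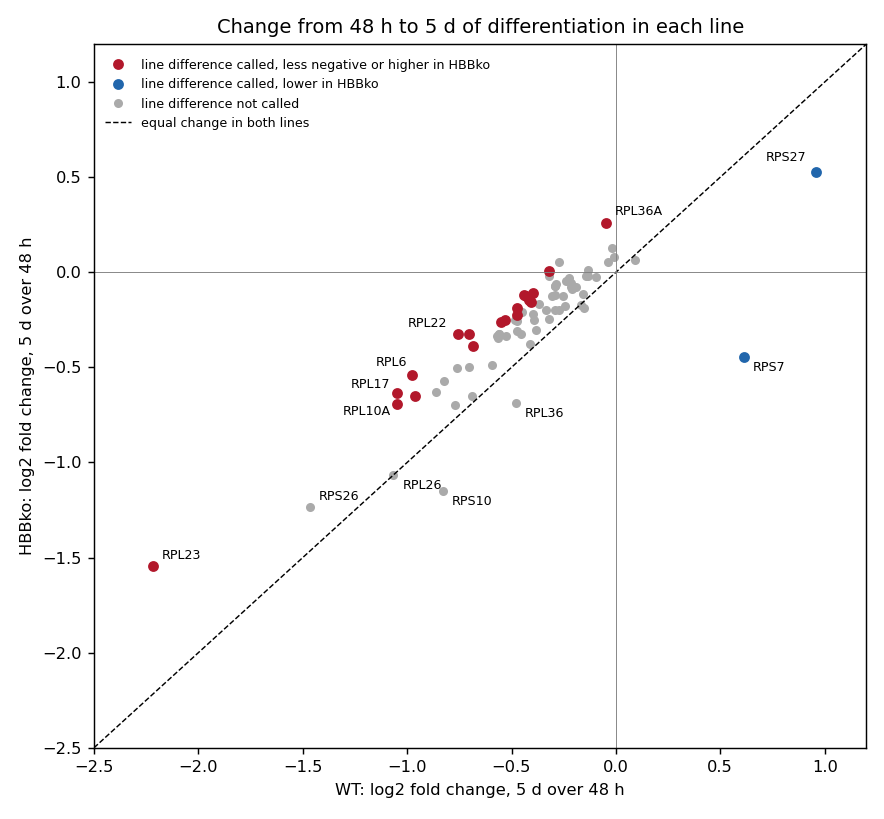
Log2 fold change of 5 d over 48 h for each of the 77 genes, in HBBko cells (vertical axis) and WT cells (horizontal axis), with the line of equal change dashed and genes whose change differed between the lines by the interaction term in colour. Most points lie above the dashed line; RPL23 is at -1.54 in HBBko and -2.22 in WT, and RPS7 and RPS27 lie below the line.

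The size of these changes depends on the scaling between libraries. Equal library sums moved the median of all tested genes by 0.26 at 5 d in HBBko against WT cells, and by -0.37 in HBBko and -0.51 in WT cells for 5 d against 48 h. Relative to the median over all tested genes, the members' median at 5 d in HBBko against WT cells was 0.15 with the authors' scaling, 0.23 with equal library sums, 0.15 with globins left out of the sum and 0.14 with median-of-ratios scaling. For 5 d against 48 h it was -0.0021, -0.08, 0.02 and 0.06 in HBBko cells and -0.20, -0.34, -0.18 and -0.13 in WT cells. From 48 h to 5 d in HBBko cells, median-of-ratios scaling gave 22 higher and 16 lower calls (40.1% and 39.6% of all tested genes). Equal sums gave 0 and 76 (17% and 66.2% of all tested genes). The direction of these calls therefore turns with the scaling, while WT cells held more lower than higher calls under each of the 4 scalings.

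The members were also divided by their start tract, as a description. Among the 57 members with a window and at least 100 scaled TPM on average, the 39 that began with C and at least 4 more C or T had a median change at 5 d against 48 h of -0.17 in HBBko cells and -0.32 in WT cells, and the 18 others had -0.23 and -0.42. At 5 d the HBBko against WT medians were 0.16 for the 39 and 0.21 for the 18, with 19 and 9 called higher. The HBBko against WT difference at 5 d ranked weakly with coding length (Spearman's rho 0.257 over 72 genes) and with the GC content upstream of the start (rho -0.283 over 57 genes), both as descriptions.

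Ribosomal proteins outside the name rule were looked at beside the members. Of 7 tested, 3 (42.9%) were called higher and 1 (14.3%) lower in HBBko against WT cells at 5 d (median 0.12). Of all tested genes 26.5% were called higher and 24.8% lower, and with 7 genes these shares cannot be told apart. The higher calls were the paralogues RPL26L1 (0.28), RPL22L1 (0.28) and RPL7L1 (0.15). FAU, the lower call and the ubiquitin-like fusion gene of a 40S protein, had 987, 991 and 946 scaled TPM in HBBko libraries and 1142, 1225 and 1153 in WT libraries at 5 d, lower in every HBBko library (-0.27 ± 0.07, limma adjusted p = 0.00555). RPL22L1 had 39.6, 42.8 and 44.0 scaled TPM at 5 d and 181, 171 and 176 at 48 h in HBBko cells, and 31.0, 36.3 and 36.4 at 5 d and 184, 190.2 and 170.3 at 48 h in WT cells. Its fall was larger in value than that of RPL22 in both lines, a difference that was not tested (-2.04 ± 0.07 in HBBko and -2.36 ± 0.07 in WT, against -0.32 ± 0.07 and -0.75 ± 0.07 for RPL22).

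Most genes that build ribosomes were called higher in HBBko cells before differentiation. Of 58 ribosome assembly factors, 42 (72.4%) were called higher and 2 (3.45%) lower in undifferentiated HBBko against WT cells (median 0.33), against 20.9% and 22.3% of all tested genes. There were 18 and 1 calls at 48 h (median 0.17, against 9.52% and 9.21% of all tested genes) and 30 and 5 at 5 d (median 0.20, against 26.5% and 24.8%). Counts for this and the other lists outside the members were not repeated without WT undifferentiated replicate 3 or with other scalings. NOP16, a nucleolar factor of 60S assembly, had 115, 108 and 112 scaled TPM in HBBko libraries and 61.6, 52.7 and 44.6 in WT libraries before differentiation, without overlap (1.08 ± 0.10, limma adjusted p = 4.98e-07). RIOK3, a kinase named for its kin in 40S maturation and known to rise late in erythroid cells, was the lowest of the list in HBBko against WT cells at all 3 stages (-0.49, -0.41 and -1.05). From 48 h to 5 d, 56 of the 58 (96.6%) were called lower and 2 higher in each line, against 49.5% of all tested genes called lower, with medians of -1.51 in HBBko cells and -1.50 in WT cells, where the ribosomal protein medians were -0.20 and -0.40. RRP9, a part of the U3 particle that processes rRNA, fell most (-2.78 ± 0.09 in HBBko and -3.0 ± 0.09 in WT), and RIOK3 was highest (2.02 and 2.67). NPM1, the major nucleolar chaperone, changed by -1.95 ± 0.06 in HBBko and -2.01 ± 0.06 in WT.

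The same shares of all tested genes stand behind the counts of the further lists. Of 15 genes for RNA polymerase I and its factors, 12 were found under the symbols used; 6 were called higher and 2 lower in HBBko against WT cells before differentiation, 1 and 0 at 48 h, and 8 and 0 at 5 d (66.7% higher), and 11 of the 12 were called lower from 48 h to 5 d in each line. POLR1B, the second largest subunit, was highest before differentiation (0.95 ± 0.14) and fell most later (-2.23 in HBBko and -2.44 in WT). Of 36 translation factors, 11 were called higher and 4 lower before differentiation, 5 and 3 at 48 h, and 14 and 5 at 5 d (38.9% and 13.9%). Of 20 other transcripts known to carry a TOP tract, 1 was called higher and 3 lower before differentiation, 3 and 1 at 48 h, and 10 and 3 at 5 d (50% and 15%), with a median at 5 d of 0.21; the elongation factors EEF1A1 (0.21 ± 0.07) and EEF2 (0.21 ± 0.07) were among the 10. The factor and TOP lists both hold EIF3F, whose HBBko against WT fold change was 0.87 before differentiation and -0.70 at 48 h. Levels of genes outside the members were not compared between the authors' tables, so unmatched rows among them cannot be told. Of 18 genes for ribosome rescue and quality control, 4 (22.2%) were called higher and 6 (33.3%) lower at 5 d, near the 26.5% and 24.8% of all tested genes, and ABCE1, which splits ribosomes after termination, was highest at every stage (0.44, 0.32 and 0.43, of which the 48 h value was not called).

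Of 16 tested regulators of TOP messages and ribosome synthesis, 3 (18.8%) were called higher and 6 (37.5%) lower at 5 d, against 26.5% and 24.8% of all tested genes. MYC, a transcription factor that drives ribosome synthesis, had 104, 111 and 96.2 scaled TPM in HBBko libraries and 63.1, 65.0 and 61.7 in WT libraries at 5 d, with every HBBko library higher (0.70 ± 0.05, limma adjusted p = 2.3e-08); at 48 h the difference was 0.00 ± 0.05. EIF4EBP1, the mTOR target that blocks cap-dependent initiation when it is not phosphorylated, had 138, 137 and 108 in HBBko libraries and 275, 289 and 291 in WT libraries at 5 d. It was lower in every HBBko library and was called lower at all 3 stages (-0.63 ± 0.10, -0.58 ± 0.10 and -1.16 ± 0.10). Whether these genes act on the ribosomal protein messages was not tested.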

How the data were processed

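RNA from 18 HUDEP-2 libraries (TruSeq RNA, per the labels' protocols) was sequenced by the authors. The submitters' processing notes name kallisto, sleuth and hg38, with versions not given in the sources used here. The authors deposited 1 table of scaled TPM, treated here as a normalized signal since the library sums differ. Its columns are named thal, read here as HBBko, and wen, read as WT. They also deposited 3 tables of their HBBko against WT tests, which give log2 fold changes, mean log2 levels, p-values and q-values in the deposited columns. The direction of those tests was read from the signs against the scaled TPM values. The test for counts was not used, since no counts were among the values analysed, and read depth is unknown.

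The 12005 of 35616 genes that reached 1 scaled TPM in 3 or more libraries were tested on log2(scaled TPM + 1) with limma 3.58.1 in R 4.3.3, as 6 group means with a mean-variance trend, 7 pairwise comparisons and 2 interaction terms, with Benjamini-Hochberg adjustment over all tested genes in each. The fit was checked on simulated data. A second fit used each library centred on the members' mean. Alternatives were other scalings, another pseudocount, no filter, only the groups compared, a replicate block and 1 library left out. Named genes are the 6 highest and 6 lowest fold changes of each comparison, the 6 highest and 6 lowest mean levels, genes chosen by role, and the highest and lowest of each further list; RPS21 and RPL38 were named after their values were seen. A few items are not reported here. The members, the gene lists and the named genes were chosen with earlier results of these data known. Gene positions in the deposited tables' annotation were not used for the sequences, which are RefSeq's start-site windows (GRCh38.p14).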

Additional observations from a re-analysis of the deposited data

Results flagged for a closer look

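Genes are given here because the HBBko against WT difference itself changed between stages by the interaction term of the limma fit, at an adjusted p under 0.05. Between 48 h and 5 d the difference rose, in log2 units, for 11 genes of the 60S subunit: RPL23 (0.68), RPL6 (0.44), RPL22 (0.43), RPL17 (0.41), RPL10A (0.36), RPL29 (0.32), RPL5 (0.31), RPL36A (0.31), RPL7A (0.29), RPL4 (0.27) and RPL15 (0.25). In the 40S subunit the genes for which it rose include RPS20 (0.38), RPS16 (0.33), RPS24 (0.31), RPS6 (0.29), RPS23 (0.29), RPS27A (0.28) and RPS13 (0.25). Among these are RPS6, the substrate of S6 kinase, and RPS27A, made as a fusion with ubiquitin. The difference fell for RPS7 (-1.06) and RPS27 (-0.43), and between undifferentiated cells and 48 h for RPL26 (-0.23). These last 3 come from scaled TPM rows whose levels are not matched in the authors' deposited tables. Why the rows differ was not tested.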

How the results depend on the processing

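Counts are of the 77 genes called, and medians are log2 fold changes; the first interaction is the change of the HBBko against WT difference between undifferentiated cells and 48 h, the second that between 48 h and 5 d. With equal library sums the calls were 33 higher and 0 lower (median 0.13) for HBBko against WT at 48 h, 73 higher and 2 lower (median 0.50) for HBBko against WT at 5 d, 2 higher and 40 lower (median -0.15) for 48 h against undifferentiated in HBBko cells, 0 higher and 76 lower (median -0.65) for 5 d against 48 h in HBBko cells, 0 higher and 62 lower (median -0.30) for 48 h against undifferentiated in WT cells, 1 higher and 75 lower (median -1.04) for 5 d against 48 h in WT cells, 19 higher and 0 lower (median 0.16) for the first interaction, 65 higher and 1 lower (median 0.39) for the second interaction. In the same order, 29.4%, 54.3%, 19.4%, 17%, 13.3%, 13.9%, 15.2% and 24.9% of all tested genes were called higher. Called lower were 5.51%, 8.83%, 46.7%, 66.2%, 55.8%, 71.6%, 2.77% and 5.93%. With globins left out of the sum the calls were 0 higher and 2 lower for HBBko against WT at 48 h, 20 higher and 8 lower for 48 h against undifferentiated in HBBko cells, 5 higher and 42 lower for 5 d against 48 h in HBBko cells, 19 higher and 17 lower for 48 h against undifferentiated in WT cells, 33 higher and 2 lower for the second interaction, with a WT median of 0.015 at 48 h against undifferentiated. In the same order, 7.39%, 29.6%, 32.2%, 29.8% and 12.9% of all tested genes were called higher. Called lower were 9.92%, 34.4%, 46.6%, 33.3% and 10.9%. With median-of-ratios scaling the calls were 0 higher and 2 lower (median -0.025) for HBBko against WT at 48 h, 20 higher and 5 lower (median 0.069) for 48 h against undifferentiated in HBBko cells, 22 higher and 16 lower (median 0.060) for 5 d against 48 h in HBBko cells, 17 higher and 9 lower (median 0.047) for 48 h against undifferentiated in WT cells, 8 higher and 35 lower (median -0.12) for 5 d against 48 h in WT cells, 0 higher and 2 lower (median 0.032) for the first interaction. In the same order, 8.13%, 32.3%, 40.1%, 32.5%, 40.2% and 6.15% of all tested genes were called higher. Called lower were 9.7%, 32.8%, 39.6%, 31.8%, 39.3% and 6.08%. With only the groups compared in the fit the members' calls were 4 higher and 0 lower for HBBko against WT before differentiation, 6 higher and 11 lower for HBBko against WT at 48 h, 19 higher and 27 lower for 48 h against undifferentiated in HBBko cells, 1 higher and 12 lower for 48 h against undifferentiated in WT cells, 0 higher and 0 lower for the first interaction, 40 higher and 2 lower for the second interaction, and relative to the members' mean 3 higher and 1 lower before differentiation and 11 higher and 11 lower at 48 h. Without a filter on low values they were 4 higher and 1 lower for HBBko against WT before differentiation, 1 higher and 0 lower for HBBko against WT at 48 h, 1 higher and 22 lower for 48 h against undifferentiated in WT cells, 11 higher and 2 lower for the second interaction, and relative to the members' mean 4 higher and 3 lower before differentiation and 0 higher and 1 lower at 48 h; a pseudocount of 5 gave 1 higher and 0 lower at 48 h. With the 4 unmatched rows left out, an alternative added after seeing the data, they were 2 higher and 3 lower for HBBko against WT before differentiation, 0 higher and 0 lower for HBBko against WT at 48 h, 36 higher and 1 lower for HBBko against WT at 5 d, 1 higher and 42 lower for 5 d against 48 h in HBBko cells, 0 higher and 62 lower for 5 d against 48 h in WT cells, 0 higher and 0 lower for the first interaction, 19 higher and 0 lower for the second interaction. With the replicate block, the calls were 1 higher and 0 lower for HBBko against WT at 48 h; no other count of calls moved by over 1.5 times. Same-numbered libraries deviated together before differentiation (correlations 0.17, 0.12 and 0.15) and at 5 d (0.13, 0.18 and 0.13) but not at 48 h (-0.03, -0.01 and 0.02), and the labels do not say that a number marks a shared culture. Leaving out 1 library at a time gave 4 higher and 1 to 17 lower (median -0.13 to 0.018) for HBBko against WT before differentiation, 0 to 1 higher and 0 lower (median -0.028 to 0.0017) for HBBko against WT at 48 h, 27 to 37 higher and 3 lower (median 0.15 to 0.21) for HBBko against WT at 5 d, 3 to 7 higher and 10 to 16 lower (median -0.067 to -0.023) for 48 h against undifferentiated in HBBko cells, 2 higher and 40 to 44 lower (median -0.22 to -0.18) for 5 d against 48 h in HBBko cells, 1 to 20 higher and 20 to 35 lower (median -0.14 to 0.013) for 48 h against undifferentiated in WT cells, 2 higher and 56 to 65 lower (median -0.44 to -0.37) for 5 d against 48 h in WT cells, 0 to 7 higher and 0 to 1 lower (median -0.036 to 0.12) for the first interaction, 9 to 19 higher and 2 lower (median 0.16 to 0.24) for the second interaction. Relative to the members' mean it gave 4 to 6 higher and 3 to 13 lower for HBBko against WT before differentiation, 0 higher and 1 to 2 lower for HBBko against WT at 48 h, 19 to 20 higher and 15 to 16 lower for HBBko against WT at 5 d. Among the named gene values, with equal sums the sign turned for RPLP1 (0.27) and RPLP2 (0.24) in HBBko against WT cells at 5 d, RPL21 in WT cells at 48 h against undifferentiated (-0.042), and for 5 d against 48 h RPS12 (-0.32), RPL41 (-0.37), RPLP2 (-0.39) and RPL36A (-0.19) in HBBko cells and RPLP2 in WT cells (-0.56). For 5 d against 48 h in WT cells it turned for RPS12 (0.019) and RPL41 (0.028) with globins left out, for RPS12 (0.26), RPL41 (0.26) and RPL36A (0.22) with median-of-ratios scaling, and values with 1 library left out ranged over -0.045 to 0.0071 for RPS12 and -0.034 to 0.015 for RPL41. Over the 75 named gene results, other settings lost a call 26 times and gained a call 26 times, with 13 signs turned and 460 results unchanged. With 1 library left out a call was lost 47 times and gained 0 times, with 4 signs turned and 441 results unchanged. Beyond the scaling each alternative builds in, the cause of these differences was not tested.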
